A study of Mus musculus with 8 samples.

Results

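Rod bipolar nuclei were taken from single-nucleus RNA-seq (snRNA-seq) of the adult mouse retina, in which each droplet barcode counts the transcripts of 1 nucleus as unique molecular identifiers (UMIs). They numbered 977 of the 39496 barcodes kept, with 195, 138, 142 and 78 in control libraries 1 to 4 and 124, 77, 141 and 82 in cKO libraries 10 to 13. A barcode was kept at 1000 or more UMIs and a mitochondrial share of at most 5%. It was counted as rod bipolar at 2 or more UMIs of Trpm1 and Grm6 together, 3 or more UMIs of Prkca, at most 1 UMI of the amacrine genes Gad1, Gad2 and Slc6a9 together, and at most 1 UMI of the ganglion cell genes Rbpms and Slc17a6 together. The members were thus chosen by the measured counts of these 8 genes, which are given only as a description. The comparison class, called Prkca-low nuclei here, met every other condition with at most 1 UMI of Prkca and held 1001 barcodes.

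The retina libraries served to look at expression of the mechanosensitive channel genes Piezo1 and Piezo2 in controls and at unintended effects of the Cre driver in this tissue. The series compared 4 libraries from Piezo2f/f control mice with 4 from Olig2-cre;Piezo2f/f (cKO) mice at postnatal day 120, on a C57BL/6J background, with 6 retinae pooled in each library. Both genotypes carry the floxed Piezo2 alleles, so the controls lack the Cre alone. In the cKO, Cre is expressed from the Olig2 locus in place of 1 Olig2 copy, and its targets are cells with a history of Olig2 expression. Nuclei from frozen female retinae had been sorted with antibodies against NeuN and RBPMS to enrich retinal ganglion cells, so rod bipolar nuclei are a minority that passed this sort.

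Rod bipolar cells carry the signal of rod photoreceptors to the inner retina and are the first relay of night vision. Glutamate released by rods in darkness acts on the metabotropic receptor mGluR6 (Grm6) at their dendrites, which closes the cation channel TRPM1 through a G protein, and light reverses this, so that the cell depolarises as an ON cell. ON cone bipolar types share this cascade, while rod bipolar cells are classically recognised by protein kinase C alpha (Prkca).

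Rod bipolar nuclei held a median of 2050 to 4187.5 UMIs per library, close to the Prkca-low nuclei at 1974 to 4054, and their counts summed to 185974 to 511555 UMIs per library. A ganglion cell gate took nuclei with 3 or more UMIs of Rbpms and Slc17a6 together and none of Trpm1 or Grm6. It also allowed at most 1 UMI of Gad1, Gad2 and Slc6a9 together. These nuclei should lack transcripts specific to bipolar cells, but not every gene of the lists below. They were deeper, at medians of 4921 to 10937 UMIs. No barcode sequence of a rod bipolar nucleus occurred as a rod bipolar nucleus in a second library. Levels below are in CPM, the UMIs of a gene summed over a class in 1 library and scaled to a class total of 1000000, with the SD over libraries. Each library is a pool of retinae and the labels name no animals, so p-values between genotypes measure the spread between these pools. Those between classes measure how the difference within a pool varies from pool to pool.

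The targeted gene was near the limit of detection in both genotypes. Piezo2 had 6 UMIs in the 3286069 UMIs of rod bipolar nuclei, 2 in control replicate 3, 2, 1 and 1 in cKO replicates 10, 11 and 13, and none in the other 4 libraries. Its mean was 1.01 ± 2.02 CPM in controls and 3.17 ± 2.39 CPM in cKO (difference 2.16, two-sided exact permutation p = 0.257), where 3 counts correspond to 5.86 to 16.1 CPM in a library. Counts over the whole gene do not show whether the floxed exons were removed. Olig2 had no UMI, which allows up to 0.913 CPM over all libraries, so the nuclei gave no measure of the Olig2 copy lost in the cKO. Piezo1, the related channel gene, had 4 UMIs and the laminin gene Lama2 had 13. Cacna2d3 was at 3218 ± 370 CPM in controls and 3056 ± 449 CPM in cKO, and Pde3a, a phosphodiesterase gene, at 139 ± 18.2 and 188 ± 75.2 CPM, differences within the spread of libraries (exact permutation p = 0.629 and 0.343).

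Prkca counts of the nuclei that met the other conditions chose the members and are described here without a test. They were continuous across the limits, with most nuclei at either end. Of these nuclei, 904 held no Prkca UMI, 97 held 1 UMI, 39 held 2 UMIs and belonged to neither class, and 902 held 10 or more. The rod bipolar median was 38 UMIs, with quartiles of 25 and 54. Just inside the limit, the 37 nuclei with 3 to 4 Prkca UMIs had Car8 at 41.4 CPM and Nfia at 532 CPM. The 39 nuclei just outside it, with 2 UMIs, had more Car8, at 111 CPM, and Nfia at a near level, 536 CPM. At 20 to 49 Prkca UMIs Car8 stood at 828 CPM and Nfia at 77.7 CPM. Limiting the class to 5 or more Prkca UMIs left 940 nuclei. Just inside the other limit, the 39 Prkca-positive nuclei with 2 UMIs of Trpm1 and Grm6 had Car8 at 123 CPM and Vstm2b at 102 CPM. The 71 such barcodes with 1 UMI had Car8 at 39.9 CPM, and the 938 members with 3 or more had 786 CPM. A larger group, the 1517 Prkca-positive barcodes with 0 UMIs of Trpm1 and Grm6, had Car8 at 13.2 CPM.

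**Figure D1:**
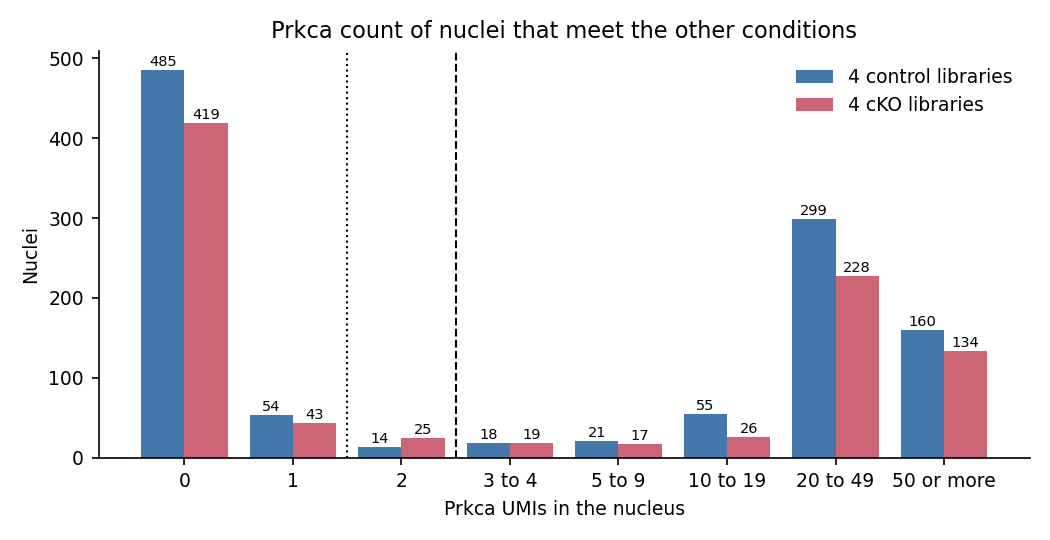
Nuclei that met every condition but the one on Prkca, by Prkca UMIs (horizontal axis, binned), in the 4 control and 4 cKO libraries (bars, counts printed above). The Prkca-low class lies left of the dotted line and the rod bipolar class right of the dashed line. Most nuclei lie at 0 or at 20 or more UMIs, and 39 lie between the lines.

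The classes were split on Prkca within the same libraries, so their comparison describes which other genes go with Prkca and is not an independent test of the split. The label was compared with 11 rod bipolar markers that the rule did not use, of which 10 had enough counts to be tested between the classes. The list was chosen with earlier results of these data known, so it is not an independent check either. Car8 (carbonic anhydrase-related protein, chr4:8141533-8239088 on the GRCm39 assembly) ran from 591 to 954 CPM (median 718) in rod bipolar nuclei and from 7.82 to 36.8 CPM (median 15.5) in Prkca-low nuclei. Car8 was higher in rod bipolar nuclei in 8 of 8 libraries and the classes did not overlap (log2 fold change 5.36, SE 0.155, edgeR adjusted p = 2.18e-15). Vstm2b, an immunoglobulin-domain membrane protein gene (chr7:40546729-40584360), ran from 357 to 631 CPM (median 404) in rod bipolar nuclei and from 5.12 to 24.0 CPM (median 13.4) in Prkca-low nuclei. Vstm2b was higher in rod bipolar nuclei in 8 of 8 libraries and the classes did not overlap (log2 fold change 4.82, SE 0.143, edgeR adjusted p = 2.73e-15).

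Tpbg, which encodes a leucine-rich repeat membrane protein, was at 43.1 ± 16.8 CPM against 3.65 ± 2.95 CPM, and the replication protein gene Rpa1 was at 346 ± 46.6 CPM against 88.2 ± 20.9 CPM (log2 fold changes 3.68 and 2.05). The G protein modulator gene Pcp2 and the ρ1 GABA receptor gene Gabrr1 were also higher, with log2 fold changes of 2.22 and 0.74, as was the transcriptional regulator Prdm8 at 1.54. In all, 8 of 10 were higher, Gabrr2 was lower and Cabp5, a calcium-binding protein gene, did not pass at 202 ± 35.6 CPM against 195 ± 33.6 CPM (log2 fold change 0.12, SE 0.0959, edgeR adjusted p = 0.404). Across all 6781 genes tested, 11.4% were called higher in rod bipolar nuclei and 13.3% lower, where a call needs a fold change beyond 0.5 on the log2 scale in either direction with an adjusted p below 0.05. A gene could enter the test through its counts in 1 class alone. For a gene near the floor in the other class, such as Tpbg, this all but fixed the direction. The median log2 fold change was 2.14 over the 10 markers and 0.00 over all genes. Bhlhe23, a transcription factor gene needed for rod bipolar maturation, was too sparse to be tested.

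In single nuclei thinned to 1000 UMIs each, 53.0 ± 5.07% of rod bipolar nuclei held a Car8 UMI (mean ± SD of 8 libraries), against 1.57 ± 0.817% of Prkca-low nuclei and 0.210 ± 0.125% of ganglion-gated nuclei, which should lack the gene. That gate took only barcodes without a Trpm1 or Grm6 UMI, so its share may lie below the level that free bipolar RNA gives. Without thinning these shares were 78.6 ± 8.19%, 4.64 ± 2.13% and 1.18 ± 0.260%. Vstm2b was seen in 34.6 ± 7.03% of thinned rod bipolar nuclei, against 1.70 ± 1.05% and 2.16 ± 0.258%, and without thinning in 68.7 ± 4.77%, 4.61 ± 1.96% and 12.9 ± 1.99%. The Prkca-low share of Vstm2b was not above that of the ganglion-gated nuclei, and whether the latter comes from free RNA was not tested. At 1000 UMIs a rod bipolar nucleus held a median of 3 of the 11 markers, and 3.99% of nuclei held none. At least 2 markers were held by 84.3 ± 4.14% of rod bipolar nuclei, 31.0 ± 5.11% of Prkca-low nuclei and 0.201 ± 0.108% of ganglion-gated nuclei. In rod bipolar nuclei this share ran from 76.8 to 89.1% over libraries.

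**Figure D2:**
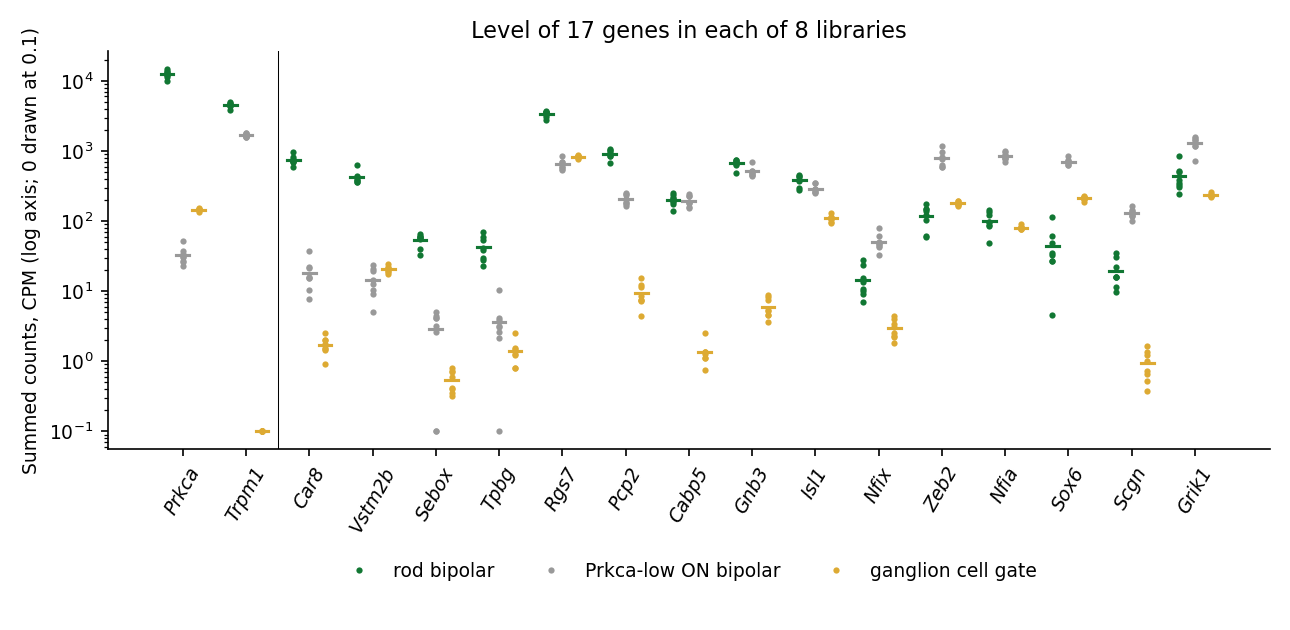
Summed level in CPM (log axis) of genes named in the text in each of the 8 libraries (points) and their mean (bar), in rod bipolar nuclei (green), Prkca-low nuclei (grey) and ganglion-gated nuclei (yellow). Left of the line are Prkca and Trpm1, which chose the members. Car8, Vstm2b, Sebox and Tpbg separate the bipolar classes in every library, Cabp5 does not, and Nfia, Zeb2, Sox6 and Scgn lie lower in rod bipolar nuclei.

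Of the genes for the mGluR6 cascade, 11 outside the rule were tested. In rod bipolar nuclei 5 were higher, where 11.4% of all genes were, 1 was lower, where 13.3% were, and 5 were not called. The median log2 fold change was 0.44. Pcp2, 1 of the 5 higher genes, is also counted among the rod bipolar markers. The largest difference was in Rgs7, the regulator that speeds shut-off of the cascade's G protein, which ran from 2742 to 3767 CPM (median 3543) in rod bipolar nuclei and from 532 to 847 CPM (median 629) in Prkca-low nuclei. Rgs7 was higher in rod bipolar nuclei in 8 of 8 libraries and the classes did not overlap (log2 fold change 2.45, SE 0.0902, edgeR adjusted p = 5.49e-14). Ganglion-gated nuclei held Rgs7 at 827 CPM, above the Prkca-low mean. Gnao1, the G protein alpha subunit coupled to mGluR6, was at 1369 ± 126 CPM against 749.7 ± 83.1 CPM (log2 fold change 0.91, SE 0.0776, edgeR adjusted p = 1.04e-08). Gpr179, the orphan receptor that anchors the RGS proteins at the dendritic tip, was at 493 ± 50.6 CPM against 258 ± 27.3 CPM (log2 fold change 1.00, SE 0.0834, edgeR adjusted p = 8.12e-09). Gng13, the gamma subunit, was at 263 ± 58.5 CPM against 179 ± 39.2 CPM (log2 fold change 0.59, SE 0.104, edgeR adjusted p = 1.43e-04), and in the cKO libraries alone its log2 fold change was 0.39 (edgeR adjusted p = 0.0607).

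Other members of the cascade were not called. Gnb3, the beta subunit of the G protein, was at 668 ± 83.5 CPM against 510.5 ± 80.6 CPM and Gnb5, the beta subunit bound to RGS proteins, at 222 ± 43.0 CPM against 174 ± 20.9 CPM. Both passed the adjusted p (edgeR, 4.53e-04 and 0.00304) below the required fold, with log2 fold changes of 0.44 and 0.38. Rgs11, the second RGS protein of the cascade, was at 269.8 ± 57.0 CPM against 266 ± 30.1 CPM (log2 fold change 0.06, SE 0.0967, edgeR adjusted p = 0.731), a difference within the spread of libraries. Rgs9bp and Lrit1 were not called either. Nyx, the leucine-rich repeat protein nyctalopin that localises TRPM1, was the one member lower in rod bipolar nuclei, at 40.5 ± 13.0 CPM against 75.7 ± 20.4 CPM (log2 fold change -0.82, SE 0.190, edgeR adjusted p = 0.00206). In the cKO libraries alone Nyx did not pass, at -0.66 (edgeR adjusted p = 0.0883). Trpm1 and Grm6 chose the members, and stood at 4550.4 and 467 CPM in rod bipolar nuclei, 1683 and 358 CPM in Prkca-low nuclei and 0 CPM behind the ganglion cell gate, which required them to be absent.

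Transcription factors of bipolar cells split between the classes. Of 13 tested, 3 were higher in rod bipolar nuclei, where 11.4% of all genes were, 5 were lower, where 13.3% were, and 5 were not called (median log2 fold change -0.04). Prdm8, 1 of the 3 higher genes, is also counted among the rod bipolar markers. Sebox, a homeobox gene (chr11:78394273-78395907), ran from 32.4 to 65.8 CPM (median 57.9) in rod bipolar nuclei and from 0 to 5.12 CPM (median 3.62) in Prkca-low nuclei. Sebox was higher in rod bipolar nuclei in 8 of 8 libraries and the classes did not overlap (log2 fold change 4.15, SE 0.310, edgeR adjusted p = 1.72e-09). In the other direction Nfia, a nuclear factor I gene (chr4:97660971-98007111), ran from 48.3 to 142 CPM (median 97.2) in rod bipolar nuclei and from 686 to 1012 CPM (median 840.2) in Prkca-low nuclei. Nfia was lower in rod bipolar nuclei in 8 of 8 libraries and the classes did not overlap (log2 fold change -3.02, SE 0.145, edgeR adjusted p = 2.41e-12). Zeb2, a zinc finger repressor gene, was at 119 ± 41.7 CPM against 799 ± 206 CPM (log2 fold change -2.72, SE 0.184, edgeR adjusted p = 3.89e-10), and Nfix and the LIM homeobox gene Lhx4 were lower, with log2 fold changes of -1.69 and -1.18. Otx2, Crx, Isl1, Neurod1 and Neurod4, which act in many bipolar or photoreceptor types, were not called and had log2 fold changes of -0.04, 0.15, 0.43, 0.22 and -0.40. Nfib was called lower (log2 fold change -0.64, SE 0.217, edgeR adjusted p = 0.0309), but the call was lost without control replicate 3 (-0.28, edgeR adjusted p = 0.209), without control replicate 2 (0.0504) and without cKO replicate 13 (0.0610).

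Promoters are shown for 2 genes present in both bipolar classes, Trpm1 and Cabp5, and for 2 genes far higher in rod bipolar nuclei, Sebox and Vstm2b. Trpm1 helped choose both classes, so its presence in both follows from the rule. Its median was 4618 CPM in rod bipolar nuclei and 1683 CPM in Prkca-low nuclei. The sequence before each start can be read beside the level of its gene. Each is the 250 bases before a RefSeq transcript start on GRCm38.p6, 5′ to 3′ along the gene, with the letters TAATCC or their reverse complement GGATTA in capitals, the core that the homeodomain proteins CRX and OTX2 are known to bind. The Trpm1 window is chr7:64153585-64153834 (plus strand), the first of 2 starts in the table, the Cabp5 window chr7:13397905-13398154 (plus), the Sebox window chr11:78503263-78503512 (plus) and the Vstm2b window chr7:40899028-40899277 (plus).
Trpm1: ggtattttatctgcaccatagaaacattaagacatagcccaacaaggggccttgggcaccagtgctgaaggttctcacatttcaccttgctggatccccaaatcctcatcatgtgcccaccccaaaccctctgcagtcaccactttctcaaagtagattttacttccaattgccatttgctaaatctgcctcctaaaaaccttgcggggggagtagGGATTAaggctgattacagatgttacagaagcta
Cabp5: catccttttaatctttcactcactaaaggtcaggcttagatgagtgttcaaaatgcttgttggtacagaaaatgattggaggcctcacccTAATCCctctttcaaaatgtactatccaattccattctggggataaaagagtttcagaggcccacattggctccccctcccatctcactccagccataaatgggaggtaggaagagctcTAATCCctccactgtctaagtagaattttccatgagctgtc
Sebox: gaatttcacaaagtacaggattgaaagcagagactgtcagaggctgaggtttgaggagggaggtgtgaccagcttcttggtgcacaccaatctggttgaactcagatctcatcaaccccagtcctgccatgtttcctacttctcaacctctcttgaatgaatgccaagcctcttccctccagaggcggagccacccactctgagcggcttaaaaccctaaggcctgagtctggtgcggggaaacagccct
Vstm2b: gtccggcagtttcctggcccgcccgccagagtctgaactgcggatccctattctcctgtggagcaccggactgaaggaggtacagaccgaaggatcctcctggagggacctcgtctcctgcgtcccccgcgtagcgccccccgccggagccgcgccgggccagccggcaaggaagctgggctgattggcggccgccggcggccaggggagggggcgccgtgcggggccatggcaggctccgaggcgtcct
The Trpm1 window held the letters once and the Cabp5 window 2 times, and the Sebox and Vstm2b windows held no match. These 4 windows do not stand for their groups: the second Trpm1 window, Grm6 and genes not called between the classes, such as Slc17a7, Syt1 and Neurod1, held no match either. Over whole sets, searched on both strands, 8.44% of the 545 matched genes called higher in rod bipolar nuclei held a match, 7.62% of the 682 matched genes called lower and 7.21% of 27025 RefSeq genes.

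Over all 6781 genes tested, members of the lists included, 774 were called higher in rod bipolar nuclei and 905 lower. By the naming rule in the methods, the most strongly higher genes were mostly long noncoding RNAs, and the one on the list with a known synaptic role was Lrrtm4, a postsynaptic adhesion protein gene (chr6:79995860-80787124). Lrrtm4 ran from 6494 to 8919.9 CPM (median 7754) in rod bipolar nuclei and from 43.4 to 162 CPM (median 74.6) in Prkca-low nuclei. The naming rule required Lrrtm4 to be higher in rod bipolar nuclei in 8 of 8 libraries, so this is no added support. Its classes did not overlap (log2 fold change 6.67, SE 0.168, edgeR adjusted p = 6.16e-16), with 748 CPM behind the ganglion cell gate. The noncoding RNA 5730419F03Rik (chr1:78536516-78607061) ran from 449 to 727 CPM (median 547) in rod bipolar nuclei and from 0 to 6.14 CPM (median 2.12) in Prkca-low nuclei, and Gm28807 (chr7:40022261-40118664) had 1571 UMIs in rod bipolar nuclei against 2 in Prkca-low nuclei, both of them in cKO replicate 10. C330024D21Rik had 246 UMIs in rod bipolar nuclei and none in Prkca-low nuclei, at least 79.2-fold higher against a floor of 3 counts over the class, and 2010001K21Rik had 223 UMIs against 1. Spag16, a sperm-associated antigen gene, was at 224 ± 65.0 CPM against 1.92 ± 2.34 CPM. The other 4 on the list overlap a gene of the opposite strand, Gm11655 Prkca itself, Gm4409 Lrrtm4, and Gm11418 and 5530401A14Rik the sodium channel gene Asic2. Of the genes above, 5730419F03Rik overlaps Gm29611, 2010001K21Rik overlaps Nhlrc1 and Lrrtm4 overlaps Gm4409 in the same way. The counts of all these genes are uncertain, since use of strand in counting was not stated, and Gm11655 is not independent of the rule. Genes of the lists also overlap a gene of the opposite strand, among them Vstm2b, Rpa1, Pcp2, Nfia, Zeb2, Sox6 and Cacna2d3. Their counts are uncertain in the same way.

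**Figure D3:**
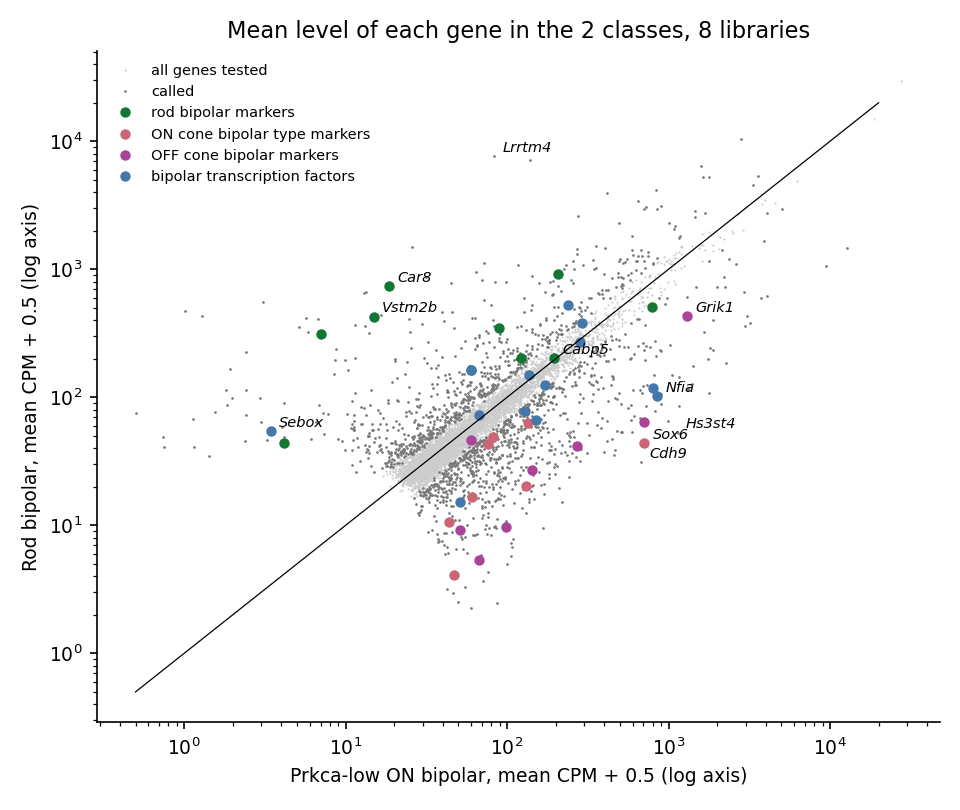
Mean level over 8 libraries of each gene tested in rod bipolar nuclei (vertical axis) and in Prkca-low nuclei (horizontal axis), in CPM plus 0.5 on log axes, without the genes that chose the members. Dark grey genes were called, coloured genes belong to 4 marker lists, and the line marks equal levels. Car8, Vstm2b and Lrrtm4 lie far above the line and Sox6, Cdh9 and Hs3st4 far below it.

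Genes lower in rod bipolar nuclei were named by the same rule. Cdh9, a classical cadherin gene (chr15:16728507-16857226), ran from 9.77 to 60.6 CPM (median 29.6) in rod bipolar nuclei and from 563 to 829 CPM (median 677) in Prkca-low nuclei. The rule required Cdh9 to be lower in rod bipolar nuclei in 8 of 8 libraries, and the classes did not overlap (log2 fold change -4.50, SE 0.221, edgeR adjusted p = 3.28e-12). Hs3st4, a heparan sulfate sulfotransferase gene, was at 52.6 ± 43.3 CPM against 1141 ± 195 CPM and Il1rapl2, a synaptic receptor-like gene, at 108 ± 66.6 CPM against 1786 ± 308 CPM (log2 fold changes -4.49 and -4.08). The corepressor gene Skor2 was at 2.02 ± 2.66 CPM against 49.4 ± 13.5 CPM. The noncoding genes Gm32884 and Gm36372 and Gm30373, for which no annotation was matched, were also among the 10, as were Gm49127 on the opposite strand of Cdh9, Gm45025 opposite Sox6 and Gm15680 overlapping Cdh8. Hs3st4 overlaps Gm27040 and 4930551E15Rik, Il1rapl2 overlaps Tex13a and Gm36372 overlaps Gm48606 and Gm48607, so the counts of these and of Cdh9 are likewise uncertain. Of 12 listed markers of ON cone bipolar types, Cck, Htr3a, Lrrtm1 and Slitrk5 were too sparse to be tested. Only 4 of the list had enough counts in rod bipolar nuclei alone to be tested between genotypes. Tested markers outside these 4 entered through their Prkca-low counts, which all but fixed their direction. All 8 tested markers were lower, where 13.3% of all genes were, with a median log2 fold change of -1.86. They included Sox6, a transcription factor gene of several cone bipolar types (43.6 ± 32.7 CPM against 707 ± 72.6 CPM, -4.01), the potassium channel subunit Kcng4 (-3.70) and the calcium sensor secretagogin, Scgn (19.6 ± 8.98 CPM against 130.3 ± 20.4 CPM, -2.69). Serpini1, at -0.62, did not pass without cKO replicate 10 (edgeR adjusted p = 0.0547), in the control libraries alone (0.109) or in the cKO libraries alone (0.0936). Cnmd, at -0.78, fell under the required fold with 0 UMIs allowed of the excluding genes (-0.495).

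Inhibitory receptor subunits, which receive amacrine input at the axon terminal, differed in both directions. Of 11 tested, 6 were lower in rod bipolar nuclei, where 13.3% of all genes were, 1 was higher, where 11.4% were, and 4 were not called (median -0.58). Of the 6, Gabrr2 and Gabrr3 lost the call in some alternatives. The ρ subunits of the slow GABA receptor differed in direction. Gabrr1 ran from 147 to 263 CPM (median 189) in rod bipolar nuclei and from 66.5 to 179 CPM (median 118) in Prkca-low nuclei. Gabrr1 was higher in rod bipolar nuclei in 7 of 8 libraries and the classes overlapped (log2 fold change 0.74, SE 0.136, edgeR adjusted p = 2.23e-04). Gabrr2 ran from 403 to 558 CPM (median 520.2) in rod bipolar nuclei and from 583 to 1019 CPM (median 721) in Prkca-low nuclei. Gabrr2 was lower in rod bipolar nuclei in 8 of 8 libraries and the classes did not overlap (log2 fold change -0.58, SE 0.0829, edgeR adjusted p = 1.07e-05), but in nuclei thinned to 1000 UMIs the difference was under the required fold (-0.48). Gabrr3 was called lower at -0.66 but lost the call in 14 of 21 alternatives, among them 7 of the 8 that left out 1 library. Among subunits of the fast GABA receptor, Gabrb2 was at 36.2 ± 26.9 CPM against 251 ± 38.4 CPM (log2 fold change -2.76), and Gabrb1 was lower (-2.29). The glycine receptor beta gene Glrb was lower (-1.23), and Glra1 was at 162 ± 21.9 CPM against 173 ± 59.6 CPM (log2 fold change -0.01, SE 0.139, edgeR adjusted p = 0.986).

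Genes of the ribbon synapse and glutamate release were compared next. Of 18 tested, 4 were higher in rod bipolar nuclei, where 11.4% of all genes were, and 2 were lower, where 13.3% were. The other 12 did not pass, as 5102 of all 6781 genes tested did not (median of the 18, 0.27). Cacna2d3, an auxiliary calcium channel subunit gene (chr14:28626892-29444600), ran from 2636 to 3660.4 CPM (median 3147) in rod bipolar nuclei and from 737 to 1100.0 CPM (median 857) in Prkca-low nuclei. Cacna2d3 was higher in rod bipolar nuclei in 8 of 8 libraries and the classes did not overlap (log2 fold change 1.86, SE 0.0737, edgeR adjusted p = 1.39e-13). Unc13b, a vesicle priming factor gene, was at 1404 ± 140.5 CPM against 594 ± 109.9 CPM (log2 fold change 1.30, SE 0.0893, edgeR adjusted p = 5.09e-10), and Snap25, a membrane fusion SNARE gene, was higher by 0.64. Rims1, an active zone scaffold gene, was at 139 ± 37.7 CPM against 451 ± 83.9 CPM (log2 fold change -1.66, SE 0.128, edgeR adjusted p = 2.79e-09). The 2 complexins of ribbon synapses were called in opposite directions, Cplx3 at 0.55 and Cplx4 at -1.09, but Cplx3 lost the call without control replicate 1 (edgeR adjusted p = 0.0711) and without cKO replicate 12 (0.0762). The vesicular glutamate transporter gene Slc17a7 was at 200.2 ± 32.7 CPM against 233 ± 64.6 CPM, Syt1 at 2715 ± 96.1 CPM against 2706 ± 206 CPM and the ribbon gene Ctbp2 at 99.4 ± 9.82 CPM against 132 ± 21.9 CPM, and none of these was called.

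The other protein kinase C genes did not follow Prkca as a family. Of 4 tested, Prkce was higher at 1134 ± 124 CPM against 539 ± 86.7 CPM (log2 fold change 1.12, SE 0.0871, edgeR adjusted p = 2.78e-09). Prkcb, the conventional beta isoform, was lower at 88.8 ± 24.5 CPM against 509 ± 43.3 CPM (log2 fold change -2.47, SE 0.122, edgeR adjusted p = 3.48e-12). Prkcz was lower at -0.88, although not in the cKO libraries alone (-0.66, edgeR adjusted p = 0.0821), and Prkci did not differ beyond the spread (log2 fold change 0.06, SE 0.196, edgeR adjusted p = 0.871). Prkcd, Prkch and Prkcq were among those too sparse to be tested.

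Transcripts of other cells were measured in the same nuclei. Of 10 listed OFF cone bipolar markers, Bhlhe22 and Col11a1 were too sparse to be tested between classes. Only 4 of the list had enough counts in rod bipolar nuclei alone to be tested between genotypes. Tested markers outside these 4 entered through their Prkca-low counts, which all but fixed their direction. Of the 8 tested, 7 were lower in rod bipolar nuclei, where 13.3% of all genes were. The 10 listed markers summed to 642 ± 306 CPM in rod bipolar nuclei, 2711 ± 511 CPM in Prkca-low nuclei and 456 ± 19.4 CPM behind the ganglion cell gate. Part of the Prkca-low class carried them: 195 of 1001 Prkca-low nuclei (19.5%) and 70 of 977 rod bipolar nuclei (7.16%) held 5 or more UMIs of Grik1, Vsx1, Tacr3 and Neto1 together. Among Prkca-low nuclei this share was 37.2% at 2 UMIs of Trpm1 and Grm6 and 6.13% at 11 or more. The OFF transcripts in this class thus lay mostly in nuclei with few Trpm1 and Grm6 UMIs. In rod bipolar nuclei the share was 5.13% at 2 UMIs and 7.59% at 11 or more. Without all barcodes of this kind, a choice made after seeing the data, 1472 of 5897 genes were called between the classes, 1347 of them among the 1679 called before. Grik1, 1 of the 7 lower markers, was then higher in rod bipolar nuclei (log2 fold change 2.08, edgeR adjusted p = 7.22e-10); the removal used its own count. By library the OFF sum in rod bipolar nuclei was 1327 CPM in control replicate 4 and at most 824 CPM in the others.

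**Figure D4:**
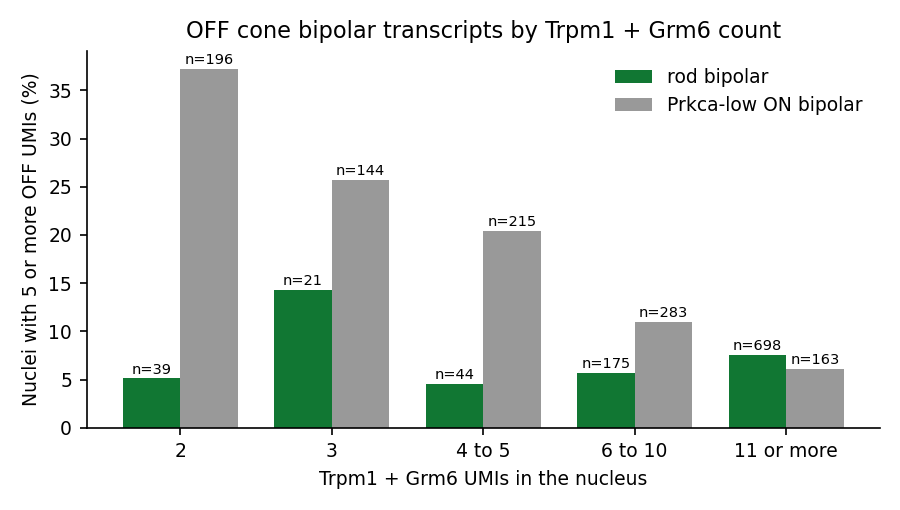
Share of nuclei with 5 or more UMIs of the OFF cone bipolar genes Grik1, Vsx1, Tacr3 and Neto1 (vertical axis, percent), by the summed Trpm1 and Grm6 UMIs of the nucleus (horizontal axis), in rod bipolar nuclei (green) and Prkca-low nuclei (grey), with the number of nuclei above each bar. The share falls from 37.2% to 6.13% along the axis in Prkca-low nuclei and stays under 15% in rod bipolar nuclei.

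The 10 rod photoreceptor markers summed to 2678 ± 811 CPM in rod bipolar nuclei, 2292 ± 1071 CPM in Prkca-low nuclei and 641 ± 239 CPM behind the ganglion cell gate. The highest sum in rod bipolar nuclei, 4522 CPM, was in cKO replicate 11, which also had the highest rod sum in the other classes. Of the 10 markers, 5 were called higher in rod bipolar nuclei, where 11.4% of all genes were. Sag, the rod arrestin gene, led them at 373 ± 104 CPM against 159 ± 41.1 CPM (log2 fold change 1.26, SE 0.122, edgeR adjusted p = 6.91e-08). The calls of Pde6b, Pdc and Rp1 were lost in nuclei thinned to 1000 UMIs, at 0.39, 0.09 and 0.25. The 4 amacrine markers outside the rule summed to 104 ± 58.9 CPM in rod bipolar nuclei, 101 ± 63.4 CPM in Prkca-low nuclei and 348 ± 32.3 CPM behind the ganglion cell gate, the 7 ganglion cell markers to 234 ± 78.3 CPM in rod bipolar nuclei, 224 ± 76.8 CPM in Prkca-low nuclei and 717 ± 112 CPM behind the ganglion cell gate, and the 7 Müller glia markers to 275 ± 62.8 CPM in rod bipolar nuclei, 335 ± 78.1 CPM in Prkca-low nuclei and 88.0 ± 27.4 CPM behind the ganglion cell gate. The 7 cone markers summed to 70.2 to 608 CPM per library in rod bipolar nuclei, and 1 of the 2 tested, the cone arrestin gene Arr3, was called higher (1.57) with 11.7 to 317 CPM over libraries, but not in the control libraries alone (0.70, edgeR adjusted p = 0.191). Of 6 oligodendrocyte lineage markers Olig1, Olig2 and Sox10 were at 0 in rod bipolar nuclei, and the myelin gene Mbp, the 1 tested, was higher (108 ± 35.0 CPM against 77.0 ± 20.2 CPM, 0.54). It lost the call without control replicate 3 (0.46) and without cKO replicate 13 (0.47), both under the required fold. The only tested horizontal cell marker, Calb1, and the only tested endothelial marker, Flt1, were not called. The part of these transcripts in the class differences was not tested.

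Rod bipolar nuclei made up 3.75, 2.45, 2.75 and 2.87% of the barcodes kept in the control libraries and 2.33, 1.47, 2.40 and 1.88% in the cKO libraries. All cKO values lay below all control values, although control replicate 2 and cKO replicate 12 differed by little. The means were 2.95 ± 0.562% and 2.02 ± 0.434%, a difference of -0.933 percentage points (two-sided exact permutation p = 0.0286, the smallest that 4 against 4 libraries can give, and 0.0571 adjusted over the 2 shares tested). Without control replicate 1 the difference was -0.667 (exact p = 0.0857), and leaving out any 1 cKO library gave an exact p of 0.0571. The Prkca-low share was 2.86 ± 0.399% in controls and 2.20 ± 0.440% in cKO, a description only, and rod bipolar nuclei were 50.7 ± 1.94% and 47.8 ± 1.30% of both bipolar classes together (difference -2.93, exact permutation p = 0.0857). The sort sets how many bipolar nuclei enter a library, so these are shares of the sort and not of the retina.

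Between genotypes, 0 of 6713 genes were called in rod bipolar nuclei by edgeR with the filter on low counts (0% of those tested, with 199 at an unadjusted p under 0.05), and DESeq2 called 1. In simulated data the edgeR fit recovered 45 of 100 genes changed 2-fold, so differences of this size can be missed. None of the 11 tested rod bipolar markers was called, with log2 fold changes of cKO over control from -0.45 to 0.16 and a median of -0.07, against 0.01 over all genes. Car8 was at 688, 954, 717 and 811 CPM in the control libraries and 695, 591, 769 and 718 CPM in the cKO libraries, with no separation of the genotypes (edgeR adjusted p = 1.00). Prdm8 was at 193, 194, 189.9 and 173 CPM in the control libraries and 149.6, 124, 171 and 105 CPM in the cKO libraries, with every cKO library below every control library, as for 2.32% of all genes in either direction (log2 fold change -0.45, SE 0.169, unadjusted p = 0.0184, edgeR adjusted p = 1.00). None of the 11 cascade genes, 13 transcription factors, 11 inhibitory receptor genes, 18 release genes and 4 protein kinase C genes was called. Of the genes that chose the members, Prkca was at 12665 ± 1115 CPM in controls and 12494 ± 2114 CPM in cKO and Trpm1 was at 4591 ± 122 CPM in controls and 4510.3 ± 521 CPM in cKO.

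The 5 genes with the smallest p were all higher in cKO, and none passed in the edgeR fit with the filter on low counts. Without that filter edgeR called 3 of them, Kirrel3 (adjusted p = 6.43e-04), Slc4a3 (5.34e-06) and Fgf14 (7.29e-05), all among the 34 genes then called of 21039. Kirrel3, an immunoglobulin-family adhesion gene (chr9:34397190-34951024), was at 54.5, 45.0, 42.4 and 58.5 CPM in the control libraries and 134, 167, 105 and 94.5 CPM in the cKO libraries. Each cKO library exceeded each control library (log2 fold change 1.27, SE 0.216, edgeR adjusted p = 0.190), and DESeq2 called it (adjusted p = 0.0457), as did edgeR without barcodes with OFF transcripts (log2 fold change 1.57, adjusted p = 0.0159). Kirrel3 was higher in the other classes, at 904 ± 355 CPM in Prkca-low nuclei and 469.8 ± 36.4 CPM behind the ganglion cell gate. With 0 UMIs allowed of the amacrine and ganglion cell genes its log2 fold change was -0.43. Slc4a3, an anion exchanger gene, was at 68.1, 60.6, 60.6 and 58.5 CPM in the control libraries and 193, 301, 70.3 and 132 CPM in the cKO libraries (adjusted p = 1.00 by edgeR with the filter and 5.34e-06 without it, and 0.111 by DESeq2). Xkr4 and Rp9 were at 77.0 ± 13.9 CPM in controls and 134 ± 14.2 CPM in cKO, and at 40.1 ± 6.21 CPM in controls and 80.8 ± 28.9 CPM in cKO, respectively. Rp9 was highest in cKO replicate 11, the library with the highest sum of rod markers, whose part in this difference was not tested. Fgf14, a sodium channel modulator gene, was at 56.3 ± 31.8 CPM in controls and 148 ± 65.7 CPM in cKO, and at 2245 CPM behind the ganglion cell gate. With 0 UMIs allowed of the excluding genes it was at -0.67 on the log2 scale. The difference between genotypes was also compared across the classes: 0 of 7997 genes had an interaction of class and genotype by edgeR with the filter on low counts (0% of those tested, 348 at an unadjusted p under 0.05, and 0 by DESeq2). Without the filter edgeR called 19 of 22888. In simulated data the interaction fit recovered 21 of 100 genes changed 2-fold.

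**Figure D5:**
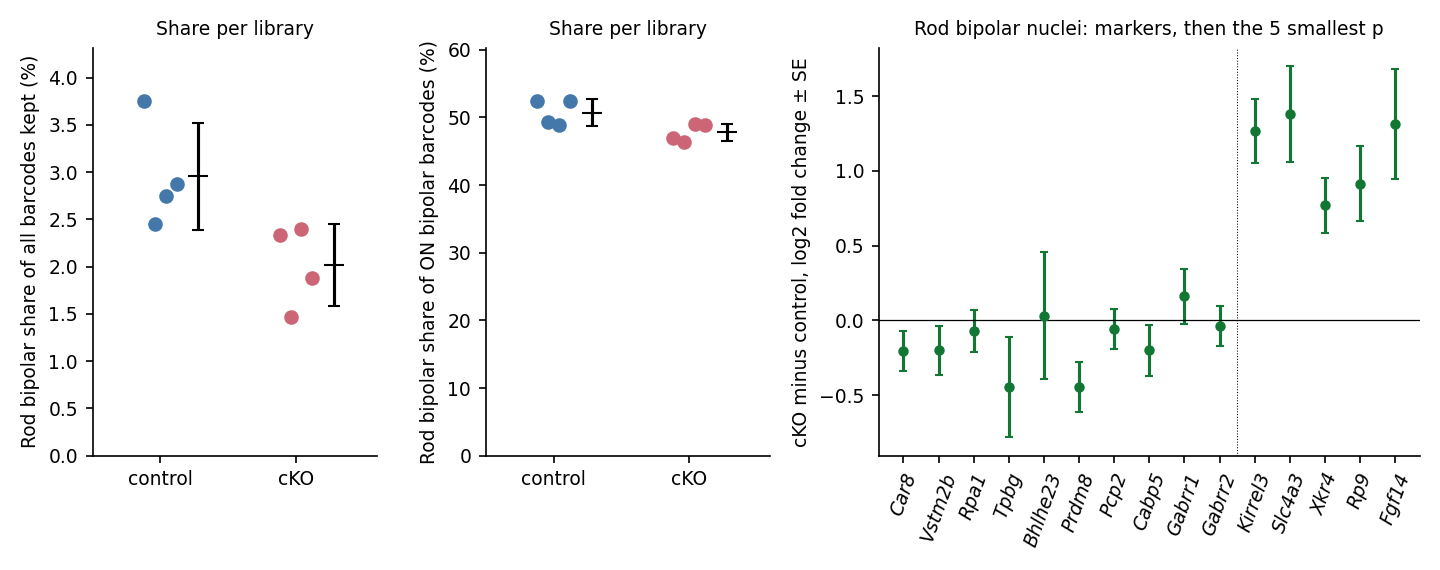
Left and middle, rod bipolar nuclei as a percentage of all barcodes kept and of both bipolar classes, 1 point per library, with mean and SD. Right, log2 fold change of cKO over control with its SE for 10 of the rod bipolar markers and, after the dotted line, for the 5 genes with the smallest p. The cKO shares on the left lie at 1.47 to 2.40%, below the controls at 2.45 to 3.75%. No gene on the right was called by edgeR with all members and the filter on low counts. Without the filter 3 of the last 5 were called, and without barcodes with OFF transcripts Kirrel3 was called.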

How the data were processed

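The deposited files hold raw UMI counts per gene and droplet barcode of 8 10x 3′ libraries. Cell Ranger 7.0.0 is the counter the authors name, on a GRCm39 reference. That version counts intronic reads unless told otherwise. The authors' later correction of free RNA, quality control and doublet removal are not in the deposited counts. The members, gene lists and tests were chosen with earlier results of these data known.

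Barcodes were gated in each library as stated in the report, with no doublet removed in the main values. UMIs were summed per library and class, each class holding more than 10 barcodes and more than 1000 counts. Library totals over all barcodes were 35697629 to 60088630 UMIs. edgeR 4.0.16 (R 4.3.3) was used with filterByExpr, TMM scaling, the quasi-likelihood F test and Benjamini-Hochberg adjustment over all genes. The classes were compared with the library as a block, and the genotypes with 4 libraries each. SE is the absolute log2 fold change over the square root of F. Shares and Piezo2 were compared by two-sided exact permutation over 70 assignments. The fits were tested on simulated data with 200 genes changed, 100 of them 2-fold. Of these 100, the genotype fit recovered 45, the class fit 95 and the interaction fit 21. False calls numbered 9, 9 and 5. A real 2-fold difference between genotypes can therefore go uncalled. Genes were named as members of the lists, as the 10 largest called folds per direction at 20 CPM or more with the same direction in every library, or, between genotypes, as the 5 smallest p.

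Alternatives were DESeq2 1.42.0, RLE scaling, no filter, other gates, removal of the highest Scrublet scores (52 rod bipolar and 27 Prkca-low barcodes; Scrublet's own threshold marked only 6 and 11 barcodes in cKO replicates 11 and 13 and was not used), thinning to 1000 UMIs, no block, each genotype alone and leaving out each library. Gene positions are those of GENCODE on GRCm39, matched by gene ID, which gave none for Gm30373. Intervals and floors cover counting error only. Values of some single genes counted within the lists are not reported here.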

Additional observations from a re-analysis of the deposited data

Results flagged for a closer look

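Of 60 groups of 4 libraries examined, 3 had a library far from the others, where chance gives about 1 in 20. The ON cone bipolar type markers summed to 206 CPM in rod bipolar nuclei of control replicate 3 and to 276 to 286 CPM in the other controls. Rp9 was at 124 CPM in cKO replicate 11 and at 62.1 to 71.4 CPM in the other cKO libraries, so that its higher cKO mean rested in part on that library. Piezo2 was at 4.04 CPM in control replicate 3, from 2 UMIs, and at 0 in the other controls.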

How the results depend on the processing

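No paired analysis was possible because the replicate numbers of control and cKO libraries do not overlap; between classes the library was the block. The number of genes called between classes was 1679, from 1594 to 1692 when 1 library was left out, and 1394 to 2500 under the other alternatives except thinning to 1000 UMIs, which called 843 of the 2703 genes left to test, 742 of them among the 1679. Without the block 1622 were called. Between genotypes 0 genes were called, also in every fit without 1 library, but 1 by DESeq2, 1 without barcodes with OFF transcripts, and 34 of 21039 without the filter on low counts. The interaction gave 19 of 22888 genes without that filter and 0 in the other alternatives.

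The rod bipolar share among barcodes kept was no longer past 0.05 at 2000 or more UMIs (-0.622 percentage points) or with 0 UMIs of the excluding genes (-0.860), and ranged from -1.10 to -0.667 without 1 library. The share among both bipolar classes passed 0.05 at 5 or more Prkca UMIs (-3.17) and without control replicate 3 (-3.57, exact permutation p = 0.0286), and ranged from -3.57 to -2.36 without 1 library. This difference was smallest without barcodes with OFF transcripts, at -1.67 (exact permutation p = 0.229). The Piezo2 difference ranged from 1.42 to 3.22 CPM without 1 library and kept its side of the threshold. Of 80 genes examined between classes, 15 lost a call in at least 1 alternative: Arr3, Cnmd, Cplx3, Gabrr2, Gabrr3, Gng13, Mbp, Nfib, Nyx, Pdc, Pde3a, Pde6b, Prkcz, Rp1 and Serpini1. Sparse genes fell under the count filter in some alternatives and were not tested there. Tpbg was tested in 12 of 22 alternatives and Arr3 in 13, so a kept call covers only those tested. Grik1 reversed without barcodes with OFF transcripts (2.08), which were chosen on its count. Kirrel3 and Fgf14 reversed between genotypes with 0 UMIs of the excluding genes (-0.431 and -0.674), where the cause was not tested. Depth limits sparse genes such as Piezo2 and Olig2.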

Other observations

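Other genes higher in rod bipolar nuclei were noticed after their values were seen and belong to no list. They included ion channels: the sodium channel Asic2 was at 7083 ± 734 CPM against 138 ± 60.7 CPM in rod bipolar against Prkca-low nuclei, the potassium channels Kcnt2 and Kcnh5 at 113 ± 31.7 CPM against 1.92 ± 2.82 CPM and at 1117 ± 93.2 CPM against 71.2 ± 22.7 CPM, and the channel subunit Kcne2 at 45.5 ± 8.42 CPM against 1.89 ± 1.82 CPM. Asic2 and Kcnh5 were also at 2819 and 475 CPM behind the ganglion cell gate. The beta-1 adrenergic receptor gene Adrb1 was at 194 ± 51.6 CPM against 8.13 ± 3.49 CPM. Among genes lower in rod bipolar nuclei, the extracellular matrix gene Reln was at 84.9 ± 55.8 CPM against 1158 ± 205 CPM and the receptor phosphatase gene Ptprz1 at 116 ± 58.6 CPM against 1327 ± 53.5 CPM. As a description only, all 8 libraries had the same sign for each of these 7 genes.

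Of 8 immediate early genes 2 had enough counts to be tested, and they were called in opposite directions. Nr4a1 was at 96.1 ± 30.7 CPM against 52.8 ± 19.4 CPM (log2 fold change 0.93, SE 0.145, edgeR adjusted p = 3.33e-05) and Egr1 was lower (log2 fold change -1.72, SE 0.221, edgeR adjusted p = 3.07e-06). Pde3a was lower in rod bipolar nuclei at 164 ± 57.0 CPM against 278 ± 76.6 CPM (-0.78), and in the cKO libraries alone it did not pass (-0.46, edgeR adjusted p = 0.125).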
